A study of Homo sapiens with 12 samples.

Results

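The 10 genes described here encode the nuclear machinery of RNA decay: the RNA exosome subunits EXOSC3, EXOSC4, EXOSC5, DIS3 and EXOSC10, the helicase MTREX, and the adaptor proteins ZCCHC8, RBM7, ZFC3H1 and PABPN1. They were chosen by symbol, with earlier results of these data known, and are 10 of the 67049 gene IDs in each count file. The RNA exosome is a barrel of ring and cap subunits that threads RNA to an attached 3′-to-5′ nuclease. In the nucleus the helicase MTREX, also called MTR4, unwinds RNA and feeds it into the barrel. MTREX works in alternative adaptor complexes, the nuclear exosome targeting complex (NEXT) with ZCCHC8 and RBM7, which takes up short unprocessed transcripts, and the poly(A) tail exosome targeting connection (PAXT) with ZFC3H1 and PABPN1, which takes up polyadenylated RNA kept in the nucleus.

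RNA was sequenced from HEK293T, a human line of embryonic kidney origin, 48 h after transfection with a pIRES2 plasmid that encodes SF3B1, a subunit of the U2 snRNP that acts in 3′ splice site choice. The 4 groups were the cytoplasm and the nucleus of cells given K700E, a substitution recurrent in blood cancers, and the cytoplasm and the nucleus of cells given the wild-type sequence (WT), with 3 libraries each and 12 in all. Cells of every group had been transfected with Lipofectamine and an SF3B1 plasmid, so overexpression of SF3B1 is shared by all of them, and no untransfected or empty-vector cells were analysed here. The title of the series concerns nuclear export of mRNA under SF3B1 mutation. Whether libraries of 1 group stem from separate cultures is not stated, so p-values measure library-to-library spread, and that spread may be technical.

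Library totals ran from 9086743 to 11200562 counts in the nucleus and from 13422598 to 18116929 counts in the cytoplasm, and the 10 genes had between 32 and 5979 counts in any library. Levels are given as CPM, the counts of a gene relative to the TMM-scaled library size. SF3B1 mRNA averaged 7924 CPM in K700E cytoplasm and 1600 CPM in K700E nuclei, against 9430 CPM in WT cytoplasm and 1577 CPM in WT nuclei, and gene counts do not separate plasmid from endogenous SF3B1. The nuclear RNAs MALAT1, NEAT1 and KCNQ1OT1 summed on average to 114 CPM in K700E cytoplasm against 6103 CPM in K700E nuclei, and to 99.8 CPM in WT cytoplasm against 5071 CPM in WT nuclei. The 13 mitochondrially encoded mRNAs summed to 6802 CPM in K700E cytoplasm against 1078 CPM in K700E nuclei, and to 12340 CPM in WT cytoplasm against 1096 CPM in WT nuclei. The HEK293 line genes PAX2, NEFM and NEFL had counts in every library (38.2 to 345 CPM summed), 4 blood cell markers summed to at most 1.00 CPM with CD3E at 0 counts, and 4 fibroblast markers, led by COL1A1 while DCN and LUM had at most 11 counts, to between 15.03 and 115 CPM.

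Transcripts of the 10 genes differ widely in base composition, and the libraries differed in how GC-rich transcripts were represented, so a coding stretch of a GC-poor and of a GC-rich member is shown. Both come from GRCh38 with GENCODE release 29 coordinates, are written 5′ to 3′ on the coding strand and have CpG dinucleotides in capitals. Each is the 120-base coding window with GC content closest to that of the gene's longest transcript, so the match was fixed by the choice. Windows were taken, and exons numbered, in the transcript with the longest coding sequence. RBM7, whose longest transcript is 36.8% GC, is shown by 120 bases of exon 2 at chr11:114401698-114401817 (plus strand), with 36.7% GC and 1 CpG. EXOSC5, whose longest transcript is 61.5% GC, is shown by 120 bases of exon 1 at chr19:41397208-41397327 (minus strand), with 61.7% GC and 8 CpG.
RBM7: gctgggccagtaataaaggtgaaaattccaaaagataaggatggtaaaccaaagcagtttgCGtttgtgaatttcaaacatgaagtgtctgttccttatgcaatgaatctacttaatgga
EXOSC5: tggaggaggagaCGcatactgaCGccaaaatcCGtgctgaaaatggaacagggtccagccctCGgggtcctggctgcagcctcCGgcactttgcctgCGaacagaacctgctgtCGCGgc

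Between the fractions, the 10 mRNAs formed 3 sets that were the same with both constructs. EXOSC3, EXOSC4, EXOSC5, MTREX and RBM7 took a larger share of cytoplasmic than of nuclear RNA, while ZCCHC8, ZFC3H1 and PABPN1 took a smaller one. DIS3 and EXOSC10 did not pass the test with either construct. With K700E, 5 members were called higher and 3 lower in cytoplasm than in nuclei by edgeR's quasi-likelihood test (adjusted p under 0.05), against 28.1% and 37.9% of all 20394 genes tested. With WT the same 5 were higher and the same 3 lower, against 27.1% and 40% of all genes. Among protein-coding genes alone, 36.5% were higher and 27.4% lower with K700E, and 35.4% and 29.5% with WT. The median log2 fold change of the 10 members, cytoplasm over nucleus, was 0.26 with K700E and 0.72 with WT, against -0.28 and -0.38 over all genes and 0.19 and 0.13 over 13895 protein-coding genes. DESeq2 called 9 members with each construct (67.3% of all genes with K700E and 68.3% with WT), limma called 8 (66.6% with K700E and 67.3% with WT), and 8 had an unadjusted edgeR p under 0.05 (69% with K700E and 70% with WT). Scaling by library size alone gave 5 members higher and 5 lower with K700E, against 20.7% and 46.4% of all genes, and 5 higher and 4 lower with WT, against 18.5% and 50.3%. It moved the median of all genes by -0.40 with K700E and -0.50 with WT on the log2 scale. These fold changes compare TMM-scaled relative levels, so neither cell number nor RNA per cell can be read from them. Absolute amounts per cell were not measured.

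**Figure D1:**
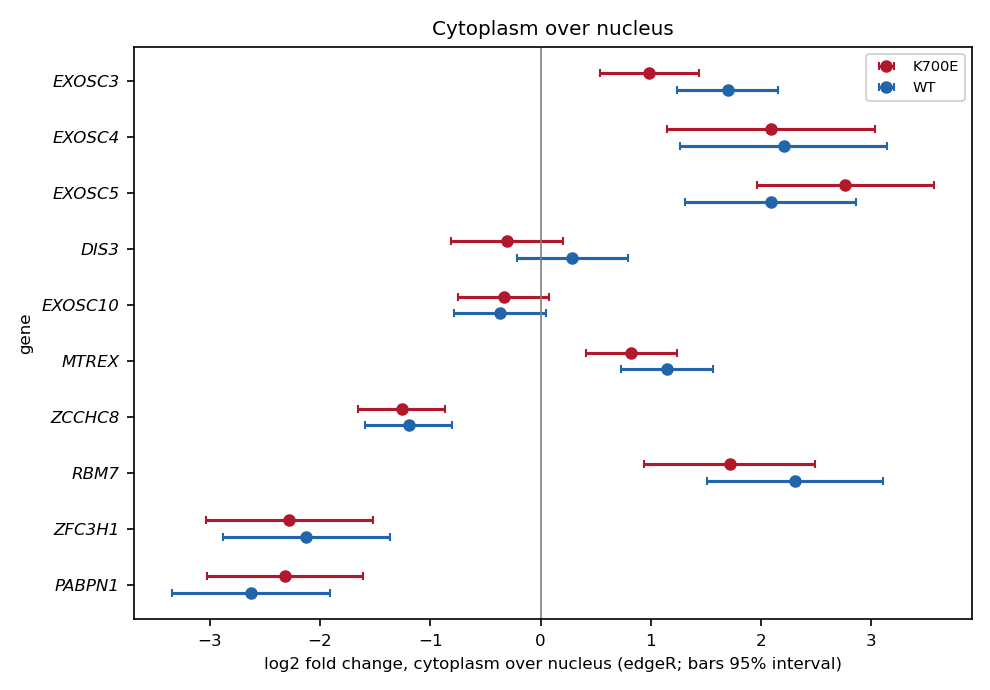
Log2 fold change of each mRNA, cytoplasm over nucleus (horizontal axis), with K700E above and WT below for each gene, from edgeR on 3 libraries per group, with 95% intervals as bars. EXOSC3, EXOSC4, EXOSC5, MTREX and RBM7 lie right of 0 and ZCCHC8, ZFC3H1 and PABPN1 left of it with both constructs, while the intervals of DIS3 and EXOSC10 include 0, and the WT value of DIS3 turns negative under 3 other settings.

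Among the ring and cap subunits, which form the RNA channel and have no nuclease activity of their own, EXOSC3, a cap subunit (ENSG00000107371.14, chr9:37766978-37801437, minus strand), was measured at 45.4, 56.0 and 59.2 CPM in K700E cytoplasm against 26.1, 30.9 and 23.7 CPM in K700E nuclei. With WT it was at 62.4, 64.4 and 80.7 CPM in cytoplasm against 19.7, 19.6 and 24.3 CPM in nuclei. Every cytoplasmic library lay above every nuclear library. EXOSC3 was 1.98-fold higher in cytoplasm than in nuclei with K700E (log2 0.99 ± 0.21 SE, edgeR adjusted p = 0.000751) and 3.24-fold higher with WT (log2 1.70 ± 0.22, adjusted p = 5.36e-06).

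EXOSC4, a ring subunit (ENSG00000178896.9, chromosome 8), had 12.1, 13.9 and 37.9 CPM in K700E cytoplasm against 5.91, 3.63 and 5.15 CPM in K700E nuclei. In WT cells the values were 23.0, 20.7 and 49.2 CPM in cytoplasm against 4.31, 8.77 and 6.73 CPM in nuclei. The third cytoplasmic library stood far above the other two with both constructs, and the fractions still did not overlap. EXOSC4 was 4.25-fold higher in cytoplasm with K700E (log2 2.09 ± 0.45 SE, edgeR adjusted p = 0.000689) and 4.62-fold higher with WT (log2 2.21 ± 0.44, adjusted p = 0.000408). Without the third K700E cytoplasmic library, the log2 fold change of EXOSC4 with K700E was 1.42 (adjusted p = 0.00539).

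EXOSC5, another ring subunit (ENSG00000077348.9, chr19:41386374-41397479, minus strand) and the GC-richest of the 10, had 24.9, 19.7 and 38.6 CPM in K700E cytoplasm against 4.95, 2.76 and 4.10 CPM in K700E nuclei. WT cytoplasm had 29.5, 25.6 and 44.7 CPM of EXOSC5, against 5.95, 12.2 and 5.00 CPM in WT nuclei. The fractions did not overlap with either construct, and the second WT nuclear library was the highest nuclear one. The mRNA was 6.79-fold higher in cytoplasm with K700E (log2 2.76 ± 0.38 SE, edgeR adjusted p = 1.14e-05), the highest value among the 10 members, and 4.25-fold higher with WT (log2 2.09 ± 0.37, adjusted p = 0.000119).

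Neither nuclease was called between fractions by edgeR. DIS3 (ENSG00000083520.15, chr13:72752169-72782096, minus strand), the main catalytic subunit of the nuclear exosome, with exonuclease and endonuclease activity, had 340.5, 338.3 and 289.5 CPM in K700E cytoplasm against 352.0, 516.5 and 328.6 CPM in K700E nuclei. WT cytoplasm had 366.1, 361.7 and 294.1 CPM of DIS3, against 349.1, 191.5 and 295.4 CPM in WT nuclei. The fractions overlapped with both constructs. The log2 fold change was -0.31 with K700E (95% interval -0.81 to 0.20, edgeR adjusted p = 0.270) and 0.29 with WT (-0.22 to 0.80, adjusted p = 0.296). The WT value of DIS3 changed direction when library size alone (-0.22), upper quartile factors (-0.07) or genes with 1 CPM in all 12 libraries (-0.02) were used, and it was called higher, at 0.36, after correction for GC content (adjusted p = 0.0333). With K700E those first 3 settings called DIS3 lower, at -0.70, -0.67 and -0.62. DIS3 shares 1180 exonic bases with BORA on the opposite strand, and whether the counting used strand is not stated.

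EXOSC10 (ENSG00000171824.14, chr1:11066618-11099881, minus strand), a nuclear exonuclease enriched in the nucleolus, had 117.8, 130.6 and 142.2 CPM in K700E cytoplasm against 162.1, 134.6 and 195.7 CPM in K700E nuclei. Its level was 150.1, 124.8 and 158.3 CPM in WT cytoplasm against 183.6, 192.9 and 182.5 CPM in WT nuclei. The fractions overlapped with K700E, and with WT all 3 cytoplasmic libraries lay below all 3 nuclear ones. The log2 fold change was -0.33 with K700E (95% interval -0.75 to 0.08, edgeR adjusted p = 0.142) and -0.37 with WT (-0.78 to 0.05, adjusted p = 0.107). DESeq2 called EXOSC10 lower in cytoplasm with both constructs, at log2 -0.45 with K700E (adjusted p = 0.0285) and -0.44 with WT (adjusted p = 0.0318), and so did edgeR with library size alone, upper quartile factors, 1 CPM in all 12 libraries or the GC correction, at -0.46 to -0.89. The antisense gene AL109811.1 covers 36.6% of the exonic bases of EXOSC10 and had 0 to 85 counts per library, against 1376 to 2422 for EXOSC10.

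MTREX (ENSG00000039123.16, chr5:55307760-55425581, plus strand), the helicase common to NEXT and PAXT, had 297.9, 301.9 and 260.1 CPM in K700E cytoplasm against 167.5, 174.3 and 143.6 CPM in K700E nuclei. With WT, MTREX had 324.8, 311.9 and 295.0 CPM in cytoplasm against 166.8, 114.9 and 138.7 CPM in nuclei. All 6 cytoplasmic libraries were above all 6 nuclear ones. MTREX was 1.77-fold higher in cytoplasm with K700E (log2 0.82 ± 0.19 SE, edgeR adjusted p = 0.00150) and 2.21-fold higher with WT (log2 1.15 ± 0.20, adjusted p = 9.15e-05).

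The NEXT adaptors went in opposite directions. ZCCHC8 (ENSG00000033030.15, chr12:122471600-122501073, minus strand), the zinc-knuckle scaffold of NEXT, had 93.9, 90.8 and 91.7 CPM in K700E cytoplasm against 193.3, 243.8 and 224.2 CPM in K700E nuclei. In WT cells it had 106.5, 106.5 and 99.1 CPM in cytoplasm against 204.2, 262.7 and 247.6 CPM in nuclei. Cytoplasmic libraries sat close together and below every nuclear one. ZCCHC8 was 2.39-fold lower in cytoplasm with K700E (log2 -1.26 ± 0.19 SE, edgeR adjusted p = 2.47e-05) and 2.29-fold lower with WT (log2 -1.19 ± 0.19, adjusted p = 3.96e-05).

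RBM7 (ENSG00000076053.12, chr11:114400030-114414203, plus strand), the RNA-binding subunit of NEXT, had 49.6, 54.2 and 43.7 CPM in K700E cytoplasm against 13.1, 24.97 and 6.45 CPM in K700E nuclei. In WT cells it had 51.1, 55.8 and 48.6 CPM in cytoplasm against 15.03, 7.63 and 8.28 CPM in nuclei. The fractions did not overlap, and the nuclear libraries spread more than the cytoplasmic ones. RBM7 was 3.29-fold higher in cytoplasm with K700E (log2 1.72 ± 0.37 SE, edgeR adjusted p = 0.000694) and 4.95-fold higher with WT (log2 2.31 ± 0.38, adjusted p = 5.93e-05). Without the second K700E nuclear library, the highest nuclear one, the log2 fold change with K700E was 2.33, and with the GC correction it was also 2.33.

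Since RBM7 was higher and ZCCHC8 lower in cytoplasm, the ratio of RBM7 to ZCCHC8, each in CPM per kb of exon, differed between the fractions without overlap. It lay between 0.551 and 0.691 in K700E cytoplasm against 0.0333 to 0.119 in K700E nuclei. In WT cells it lay between 0.555 and 0.607 in cytoplasm against 0.0336 to 0.0852 in nuclei. Per kb of all annotated exonic bases, RBM7 mRNA was below ZCCHC8 mRNA in all 12 libraries, and further below in nuclei. Which gene is higher per kb depends on the length chosen, and other lengths were not tested. Of the other partner ratios, PABPN1 to ZFC3H1 lay between 0.436 and 1.85 in K700E cytoplasm against 0.747 to 1.06 in K700E nuclei, and EXOSC10 to DIS3 between 0.624 and 0.886 in K700E cytoplasm against 0.470 to 1.07 in K700E nuclei, both with overlap. With WT, PABPN1 to ZFC3H1 lay between 0.716 and 0.965 in cytoplasm against 0.739 to 2.92 in nuclei, and EXOSC10 to DIS3 between 0.623 and 0.972 in cytoplasm against 0.949 to 1.82 in nuclei, again with overlap. EXOSC5 to EXOSC4 lay between 0.962 and 1.95 in K700E cytoplasm against 0.720 to 0.792 in K700E nuclei, without overlap, and between 0.860 and 1.21 in WT cytoplasm against 0.703 to 1.31 in WT nuclei, with overlap.

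Both PAXT adaptors were lower in cytoplasm. ZFC3H1 (ENSG00000133858.17, chr12:71609472-71667725, minus strand), the zinc-finger protein that links MTREX to PABPN1, had 59.5, 66.9 and 45.5 CPM in K700E cytoplasm against 352.4, 273.8 and 208.5 CPM in K700E nuclei. Its level was 53.2, 53.2 and 42.2 CPM in WT cytoplasm against 359.4, 95.8 and 193.6 CPM in WT nuclei. The fractions did not overlap, although the WT nuclear libraries ranged widely. ZFC3H1 was 4.85-fold lower in cytoplasm with K700E (log2 -2.28 ± 0.36 SE, edgeR adjusted p = 4.48e-05) and 4.36-fold lower with WT (log2 -2.12 ± 0.36, adjusted p = 8.16e-05). Without the first WT nuclear library the WT value was -1.49 (adjusted p = 0.000264).

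PABPN1 (ENSG00000100836.11, chr14:23321289-23326185, plus strand), the nuclear poly(A)-binding protein, had 11.2, 11.7 and 33.7 CPM in K700E cytoplasm against 105.5, 91.1 and 88.9 CPM in K700E nuclei. WT cytoplasm had 17.4, 15.3 and 16.3 CPM of PABPN1, against 106.5, 112.1 and 86.5 CPM in WT nuclei. All cytoplasmic libraries were far below the nuclear ones, and the third K700E cytoplasmic library was the highest of the 6. PABPN1 was 5.00-fold lower in cytoplasm with K700E (log2 -2.32 ± 0.34 SE, edgeR adjusted p = 1.85e-05) and 6.17-fold lower with WT (log2 -2.62 ± 0.34, adjusted p = 6.00e-06). Without the third K700E cytoplasmic library the K700E value was -3.00. PABPN1 shares 653 exonic bases with the read-through gene BCL2L2-PABPN1, which had 4 to 49 counts per library, against 131 to 1360 for PABPN1, and summing both genes gave -2.30 with K700E and -2.58 with WT.

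Counted by library, 5 members lay wholly above and 3 wholly below the nucleus in K700E cytoplasm, against 30.2% and 40.4% of all genes, and 5 above and 4 below in WT cytoplasm, against 29.7% and 40.4%. The fourth below with WT was EXOSC10.

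**Figure D2:**
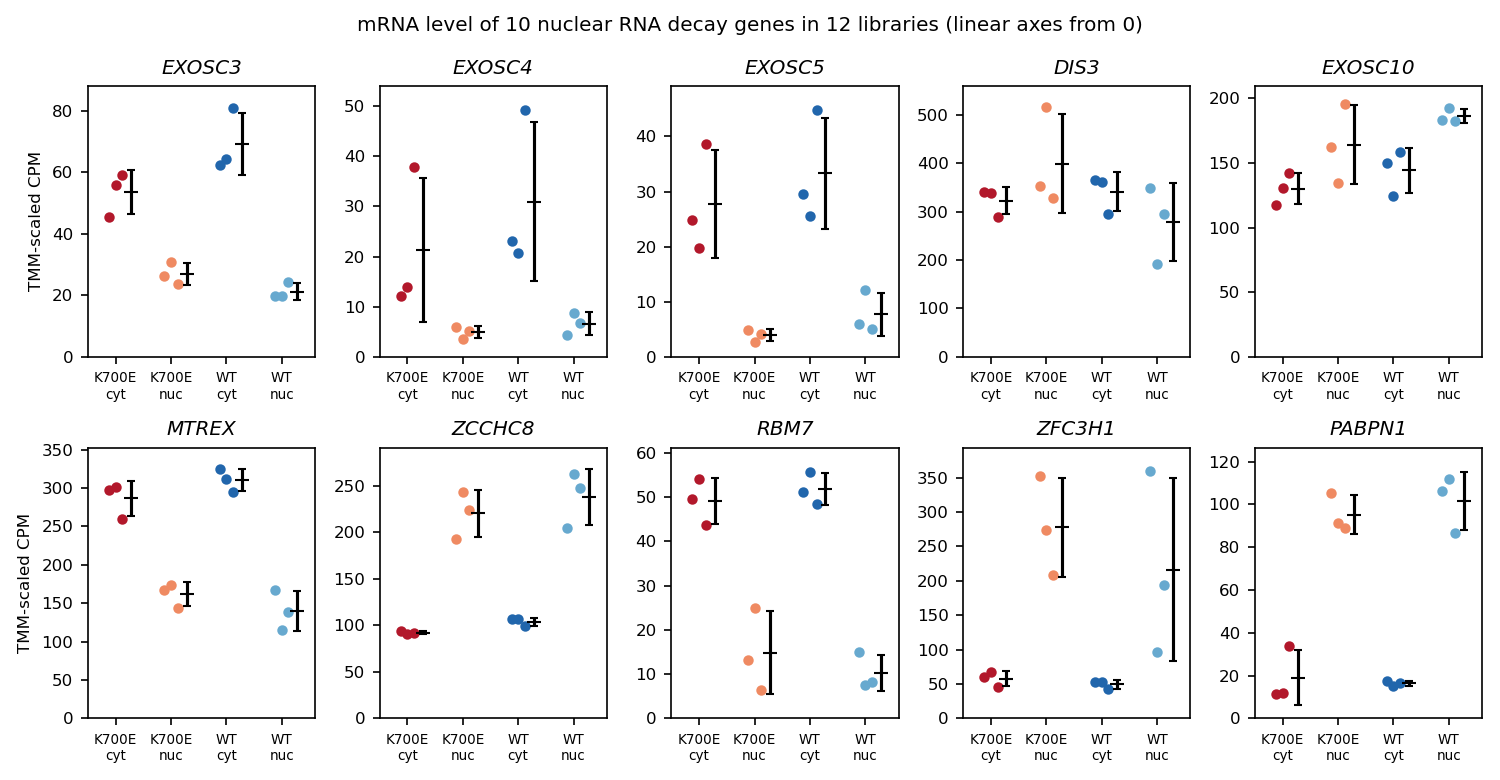
TMM-scaled CPM of each mRNA (vertical axes, linear from 0) in K700E cytoplasm, K700E nucleus, WT cytoplasm and WT nucleus, with 1 point per library and the mean with SD of 3 libraries beside it. EXOSC3, EXOSC4, EXOSC5, MTREX and RBM7 are higher in cytoplasm, ZCCHC8, ZFC3H1 and PABPN1 in nuclei, and the K700E and WT points of 1 fraction overlap for most genes.

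Levels per length put the members in a different order in the 2 fractions. Length here is all annotated exonic bases of a gene, which exceed its longest transcript unevenly. EXOSC10 has 6003 exonic bases and a longest transcript of 2808, against 10835 and 10604 for DIS3. The order between genes thus depends on the length chosen, and other lengths were not tested. In K700E cytoplasm MTREX was highest at 43.6 ± 3.5 CPM per kb (SD, n = 3), apart from all others. DIS3 followed at 29.8 ± 2.7 and EXOSC10 at 21.7 ± 2.0. DIS3 lay apart from EXOSC10, while EXOSC4 reached 26.96 against a lowest DIS3 value of 26.72. EXOSC10 overlapped EXOSC5. EXOSC5, EXOSC3, EXOSC4 and ZCCHC8 came next, each overlapping the one before it. ZCCHC8 stood apart from RBM7 below it, and RBM7, ZFC3H1 and PABPN1 at 4.87 ± 3.32 overlapped at the low end. In K700E nuclei the top 6 were DIS3 at 36.8 ± 9.4, ZFC3H1, EXOSC10, MTREX, PABPN1 and ZCCHC8 at 24.2 ± 2.8 CPM per kb, each overlapping its neighbour. EXOSC3 stood alone at 8.91 ± 1.21, and EXOSC4, EXOSC5 and RBM7 at 1.88 ± 1.19 overlapped below it.

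In WT cytoplasm MTREX was highest at 47.2 ± 2.3 CPM per kb, apart from all others, followed by DIS3 at 31.4 ± 3.7. DIS3 (27.1 to 33.8) lay apart from EXOSC10, next by mean, but overlapped EXOSC5 (up to 30.0) and EXOSC4 (up to 34.9). EXOSC10, EXOSC3, EXOSC5 and EXOSC4 overlapped one another at mean levels between 24.1 and 22.0, and ZCCHC8, RBM7, ZFC3H1 and PABPN1 came last, with ZFC3H1 and PABPN1 overlapping. In WT nuclei EXOSC10 was highest by its mean at 31.0 ± 0.9 CPM per kb, without overlap with PABPN1 at 26.2 ± 3.5. DIS3 (up to 32.2) and ZFC3H1 (up to 37.2) did overlap EXOSC10. PABPN1 was followed by ZCCHC8, DIS3, ZFC3H1 and MTREX, each overlapping its neighbour. EXOSC3, EXOSC5 and EXOSC4 overlapped below them, and RBM7 was lowest at 1.31 ± 0.52. Within the upper 6 of the nucleus the order of means differed between the constructs: DIS3 was 1st with K700E and 4th with WT, ZFC3H1 2nd and 5th, and PABPN1 5th and 2nd, among neighbours that mostly overlapped.

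**Figure D3:**
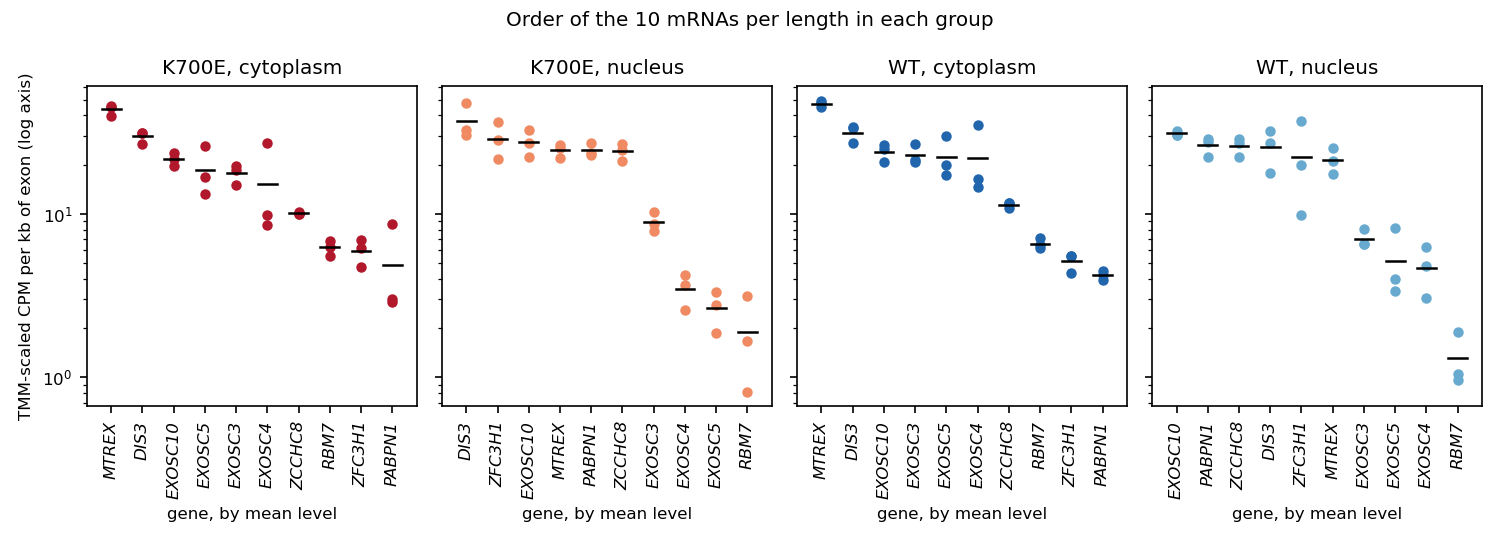
TMM-scaled CPM per kb of exon (log axis) of the 10 mRNAs in each group, ordered by mean, with 1 point per library and a bar at the mean. MTREX is first in both cytoplasmic groups (43.6 CPM per kb with K700E and 47.2 with WT), while PABPN1 is last in cytoplasm and RBM7 last in nuclei (1.88 CPM per kb with K700E and 1.31 with WT).

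K700E was then set against WT within each fraction, for the question whether levels of the decay machinery differ between the constructs. In the nucleus, 0 of the 10 members were called by edgeR, as for all genes (0%). At an unadjusted p under 0.05 there were 2 (6.81% of all genes), and DESeq2 (0.0049% of all genes) and limma called 0 members. The member with the smallest p was EXOSC5, with 4.95, 2.76 and 4.10 CPM in K700E nuclei against 5.95, 12.2 and 5.00 CPM in WT nuclei. All 3 K700E libraries lay below all 3 WT libraries, as for 4.87% of all genes, and 0 members lay wholly above (3.91% of all genes). Its log2 fold change, K700E over WT, was -0.94 ± 0.37 SE (95% interval -1.72 to -0.16, edgeR adjusted p = 0.659). With the GC correction the value for EXOSC5 was -0.45, and without the 3 libraries in which GC-rich transcripts were highest it was -0.46.

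DIS3 went the other way in the nucleus, with 352.0, 516.5 and 328.6 CPM in K700E against 349.1, 191.5 and 295.4 CPM in WT. The groups overlapped, and the second libraries were the highest K700E and the lowest WT one. The log2 fold change was 0.52 ± 0.24 (95% interval 0.01 to 1.03, edgeR adjusted p = 0.659), and it was 0.25 with the GC correction and 0.31 without the 3 libraries. The other 8 members had log2 fold changes between -0.42 for EXOSC4 and 0.51 for RBM7. The RBM7 value was -0.07 without the second K700E nuclear library, and its interval ran from -0.26 to 1.29. The RBM7 value was 0.90 without the first WT nuclear library and 0.88 without the third K700E nuclear library. The ZFC3H1 value of 0.36 was 0.01 without the second WT nuclear library and 0.95 without the first. The narrowest interval was that of ZCCHC8, from -0.50 to 0.28.

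In the cytoplasm, edgeR called 0 members, against 0.0049% of all genes called higher and 0% called lower. DESeq2 (0.0637% of all genes) and limma also called 0 members, and 0 members had an unadjusted p under 0.05 (4.56% of all genes). EXOSC3 was lower in all K700E libraries, at 45.4, 56.0 and 59.2 CPM in K700E cytoplasm against 62.4, 64.4 and 80.7 CPM in WT cytoplasm, with a log2 fold change of -0.37 ± 0.21 (95% interval -0.81 to 0.08, edgeR adjusted p = 1.00). ZCCHC8 was also without overlap, at 93.9, 90.8 and 91.7 CPM in K700E cytoplasm against 106.5, 106.5 and 99.1 CPM in WT cytoplasm, with a log2 fold change of -0.17 ± 0.18 (-0.56 to 0.21, edgeR adjusted p = 1.00). These 2 of 10 members compare with 6.98% of all genes whose K700E libraries all lay below the WT ones, and 0 members lay wholly above (6.6% of all genes).

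The other cytoplasmic values lay between -0.54 for EXOSC4 and 0.21 for PABPN1. The EXOSC4 value was -1.25 without the third K700E cytoplasmic library and -0.03 without the third WT one, both of which stood above the rest of their group. For MTREX the log2 fold change was -0.12 (95% interval -0.52 to 0.29) and for EXOSC10 -0.15 (-0.56 to 0.26). PABPN1 rested on 1 library: K700E cytoplasm had 11.2, 11.7 and 33.7 CPM against 17.4, 15.3 and 16.3 CPM in WT cytoplasm, and without the third K700E library the log2 fold change was -0.51 instead of 0.21. The median over the 10 members, K700E over WT, was 0.06 in the nucleus and -0.13 in the cytoplasm, against -0.05 and 0.00 over all genes. An adjusted p above 0.05 does not show that the levels were equal, and the widest interval in the cytoplasm, that of EXOSC4, ran from -1.42 to 0.35.

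**Figure D4:**
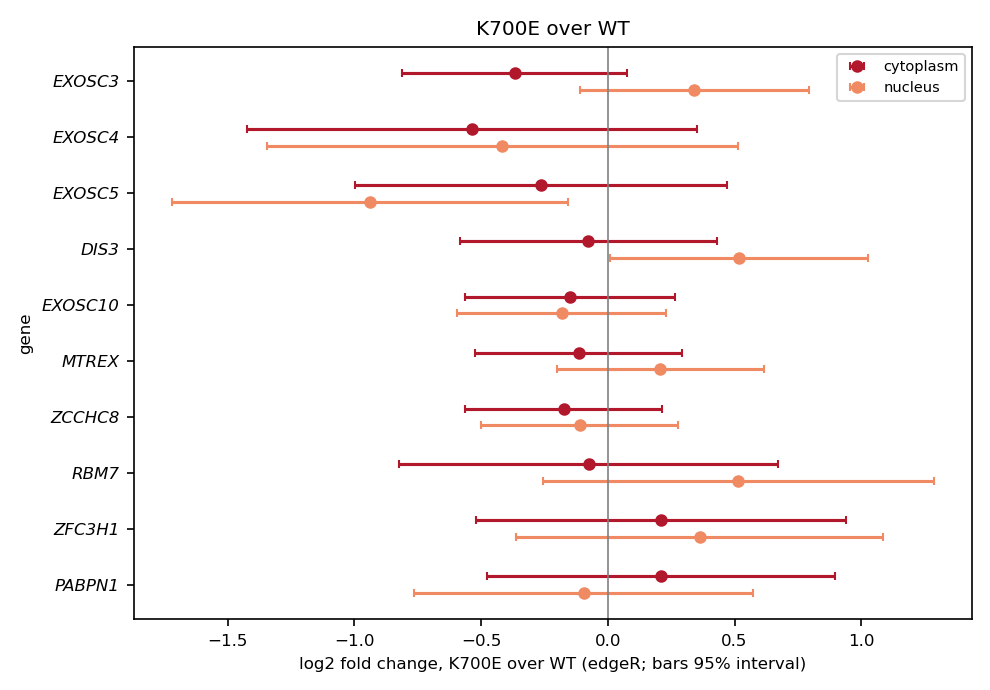
Log2 fold change of each mRNA, K700E over WT (horizontal axis), in the cytoplasm (above) and the nucleus (below) for each gene, from edgeR on 3 libraries per group, with unadjusted 95% intervals as bars. All intervals include 0 except those of EXOSC5 (-0.94) and DIS3 (0.52) in the nucleus, which do not pass after adjustment over all genes (adjusted p = 0.659 for both).

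The fraction ratio itself was compared between the constructs as an interaction, the log2 cytoplasm-over-nucleus fold change with K700E minus that with WT. It uses the same 12 libraries as the comparisons above, so it is not separate evidence. edgeR called 0 members, as for all genes (0%), DESeq2 (0.0147% of all genes) and limma called 0 members, and 1 member had an unadjusted p under 0.05 (3.3% of all genes). That was EXOSC3, whose log2 fold change was 0.99 with K700E and 1.70 with WT, a difference of -0.71 ± 0.30 SE (95% interval -1.34 to -0.08, edgeR adjusted p = 0.980). DIS3 had -0.31 with K700E and 0.29 with WT, a difference of -0.60 (-1.31 to 0.12, adjusted p = 0.980). MTREX differed by -0.32 (-0.90 to 0.25), RBM7 by -0.59 (-1.66 to 0.48) and EXOSC5 by 0.68 (-0.37 to 1.72). The value of EXOSC5 was 0.18 with the GC correction. ZCCHC8 and EXOSC10 had the values closest to 0, at -0.06 (-0.61 to 0.49) and 0.03 (-0.55 to 0.62), and both changed direction under other settings.

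The libraries of a group differed in how strongly GC-rich mRNAs were represented, and several members moved with that difference. The GC gap of a library is the median log2 deviation from the group mean of coding genes with at least 61.2% GC minus that of coding genes with at most 38.2% GC, among 11012 expressed coding genes. It was highest in the second WT nuclear library (1.02), the third K700E cytoplasmic library (0.81) and the third WT cytoplasmic library (0.49), and lowest in the first WT nuclear library (-0.60) and the second K700E nuclear library (-0.57). EXOSC5 deviated from its group mean in the direction of the gap in 12 of 12 libraries and EXOSC4 in 11 of 12, and both have GC-rich transcripts (61.5% and 57.1%). DIS3 deviated the opposite way in 12 of 12 libraries, and MTREX and ZFC3H1 in 11 of 12, with transcripts of 39.1%, 39.5% and 40.1% GC. RBM7, the GC-poorest at 36.8%, was opposite in 9 of 12, and ZCCHC8 (43.4%) in 8 of 12. PABPN1 (53.1%) and EXOSC10 (49.3%) had the sign of the gap in 9 of 12, and EXOSC3 (42.0%) in 6 of 12. Deviations are taken from the mean of the library's own group, so the 12 signs are not independent. With the 3 libraries of highest gap left out, the 5 members higher and the 3 lower in cytoplasm were still called with both constructs. With K700E the log2 fold changes were then 1.00 for EXOSC3, 1.46 for EXOSC4, 2.53 for EXOSC5, 0.98 for MTREX and 1.88 for RBM7, and -1.17 for ZCCHC8, -2.05 for ZFC3H1 and -2.95 for PABPN1. With WT they were 1.59 for EXOSC3, 2.03 for EXOSC4, 2.37 for EXOSC5, 1.13 for MTREX and 2.25 for RBM7, and -1.01 for ZCCHC8, -2.30 for ZFC3H1 and -2.47 for PABPN1.

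**Figure D5:**
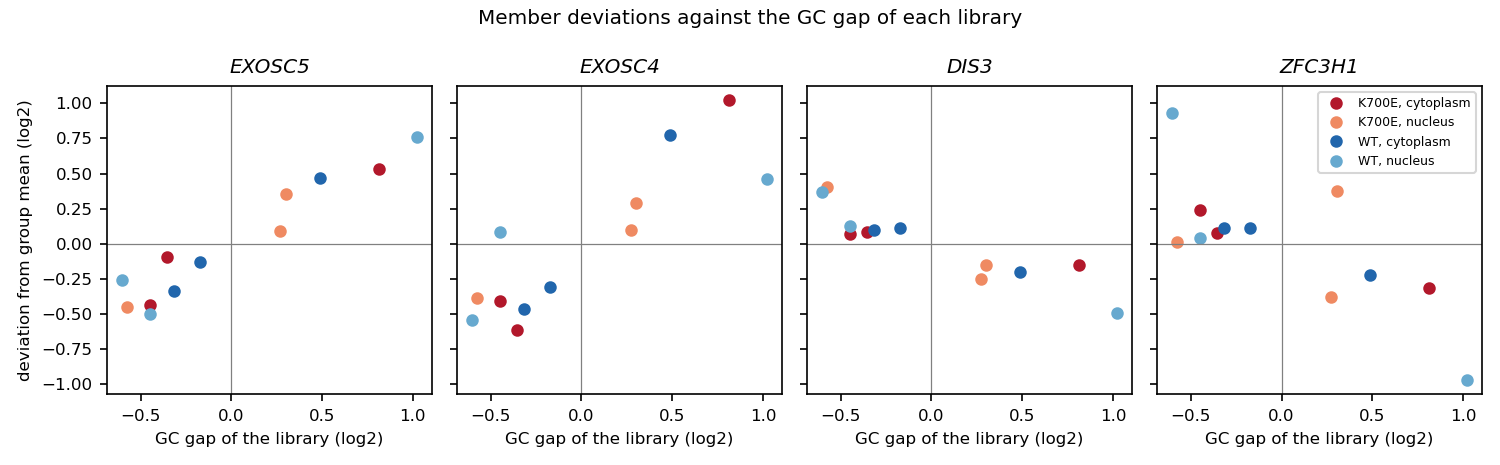
Log2 deviation of 4 mRNAs from their group mean (vertical axes) against the GC gap of the library (horizontal axes), with 1 point per library coloured by group. EXOSC5 and EXOSC4 are high in the libraries with the highest gap (1.02, 0.81 and 0.49) and DIS3 and ZFC3H1 are low there.

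Gene length also went with the fraction ratio among the 11012 expressed coding genes. With K700E the median log2 fold change, cytoplasm over nucleus, was 1.04 for the 2753 of them spanning at most 15437 bases. It was -0.06 for the 2753 spanning at least 87647 bases. With WT the medians of these short and long classes were 0.88 and -0.002. Of the 4 members in the short class, EXOSC4 (2022 bases), EXOSC5 (11106 bases) and RBM7 (14174 bases) were higher in cytoplasm with both constructs and PABPN1 (4897 bases) was lower. MTREX (117822 bases), the 1 member in the long class, was higher. Of the 5 members between the classes, EXOSC3 was higher, ZCCHC8 and ZFC3H1 were lower, and DIS3 and EXOSC10 were not called.

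The same test was read for 40 other genes of RNA decay, of which 39 were tested. With K700E, 17 were higher and 9 lower in cytoplasm (median log2 fold change 0.31), against 28.1% and 37.9% of all genes (median -0.28). With WT 16 were higher and 9 lower (median 0.46), against 27.1% and 40% of all genes (median -0.38). Among 13895 protein-coding genes, 36.5% were higher and 27.4% lower with K700E (median 0.19). With WT these coding shares were 35.4% and 29.5% (median 0.13). Of the 6 other ring and cap subunits, 4 were higher with both constructs, EXOSC1, EXOSC2, EXOSC6 and EXOSC7, and EXOSC8 was lower, at -0.50 with K700E and -0.51 with WT. EXOSC6, a ring subunit, had the largest change of these, at 1.18 ± 0.23 SE with K700E (edgeR adjusted p = 0.000286) and 0.91 ± 0.23 with WT (adjusted p = 0.00214). EXOSC9 did not pass, at 0.18 with K700E and 0.50 with WT.

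The other partners of the nuclear machinery also split by fraction. RBM26, which acts with PAXT, was lower in cytoplasm by log2 -2.13 ± 0.26 with K700E (edgeR adjusted p = 3.71e-06) and -1.83 ± 0.26 with WT (adjusted p = 1.53e-05), in the direction of ZFC3H1 and PABPN1. ZC3H3, another PAXT-associated protein, went the other way, at 1.31 ± 0.47 with K700E (adjusted p = 0.0224), and did not pass with WT, at 0.78 ± 0.47 (adjusted p = 0.148). RBM27, the last of these 3, did not pass, at -0.14 with K700E and 0.06 with WT. TENT4A, a noncanonical poly(A) polymerase, was lower by -2.12 ± 0.21 with K700E (adjusted p = 4.57e-07) and -1.93 ± 0.21 with WT (adjusted p = 1.08e-06). NRDE2, a partner of MTREX, was lower by -1.50 ± 0.20 with K700E (adjusted p = 8.02e-06) and -1.43 ± 0.20 with WT (adjusted p = 1.26e-05). C1D, a cofactor of EXOSC10, was higher at 1.31 ± 0.33 with K700E (adjusted p = 0.00253) and 1.83 ± 0.34 with WT (adjusted p = 0.000186).

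NCBP2, the small subunit of the nuclear cap-binding complex, was higher in cytoplasm at 1.44 ± 0.21 with K700E (edgeR adjusted p = 2.45e-05) and 1.76 ± 0.22 with WT (adjusted p = 3.45e-06). WDR82, which acts in transcription termination, was higher at 2.64 ± 0.26 with K700E (adjusted p = 4.16e-07) and 2.74 ± 0.26 with WT (adjusted p = 3.04e-07). Among cytoplasmic decay factors, SKIC3 of the SKI complex, which feeds RNA to the cytoplasmic exosome, was lower at -1.41 ± 0.23 with K700E (adjusted p = 5.44e-05) and -0.85 ± 0.22 with WT (adjusted p = 0.00317). The deadenylase PAN2 was lower at -2.65 ± 0.26 with K700E (adjusted p = 3.25e-07) and -2.51 ± 0.26 with WT (adjusted p = 5.31e-07). The deadenylase PARN was higher at 2.02 ± 0.70 with K700E (adjusted p = 0.0183) and 3.51 ± 0.74 with WT (adjusted p = 0.000619). Between the constructs, edgeR called 0 of the 39 in the nucleus, in the cytoplasm and in the interaction, with 4, 1 and 0 at an unadjusted p under 0.05, and DESeq2 and limma called 0 in each.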

How the data were processed

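The deposited files hold the authors' whole-number counts per gene, 1 file for each of 12 libraries, and none of the columns were identical. The submitters' processing notes name HISAT2 and DESeq without versions, and for the counting program, genome build, annotation and strand setting the sources used here give nothing. Libraries were made with a NEBNext Ultra kit from Trizol extracts, per the labels' protocols. IDs were matched without their version to symbols and to GENCODE release 29 on GRCh38 (58396 of 67049 IDs, holding 99.73% of counts), which gave all 10 members, their positions, GC content and exonic length. The annotation may differ from the authors' own.

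edgeR 4.0.16 under R 4.3.3 was used for quasi-likelihood F tests of the counts on all 12 libraries with 1 term per group of construct and fraction, TMM scaling, filterByExpr (minimum count 10, minimum total 15) and Benjamini-Hochberg adjustment over 20394 genes, with adjusted p under 0.05 called. All 10 members passed the filter. CPM are TMM-scaled, SD is over 3 libraries, the prior count for logarithms was 2, and the biological coefficient of variation was 0.306. Intervals are 95% and unadjusted. The 5 comparisons were cytoplasm over nucleus with each construct, K700E over WT in each fraction, and the interaction. The code was checked on simulated data.

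Alternatives were DESeq2 1.42.0, limma 3.58.1 voom, RLE factors, upper quartile factors, library size alone, 1 CPM in all 12 libraries, no filter beyond 1 count, only the 6 libraries compared, replicate blocks, offsets that remove a library's dependence on transcript GC content, each library left out, and PABPN1 summed with BCL2L2-PABPN1. Leaving out the 3 libraries with the highest positive GC gap, not those with the largest gap in either direction, was chosen after seeing the data. Members and gene lists were chosen with earlier results of these data known. Named besides the members are the called gene with the largest change in each list with at least 3 genes tested, and EXOSC1, EXOSC2, EXOSC7, EXOSC8, EXOSC9, ZC3H3 and RBM27, which were named after their values were seen. No library or member was left out. Counts carry no molecular identifiers, and depth limits precision most for EXOSC5, EXOSC4 and RBM7 in nuclei.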

Additional observations from a re-analysis of the deposited data

How the results depend on the processing

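All 16 called fold changes of members, cytoplasm over nucleus, kept their call and direction under every alternative run. The number of members called lower in cytoplasm with K700E was 3 and became 5 with library size alone, 5 with upper quartile factors and 5 with 1 CPM in all 12 libraries, as DIS3 and EXOSC10 were added. These settings moved the median of all genes by -0.40, -0.36 and -0.32 with K700E and by -0.50, -0.36 and -0.32 with WT. DESeq2 moved it by -0.11 with K700E and -0.07 with WT, and RLE factors by -0.11 and -0.07. No filter beyond 1 count moved it by 0.06 with K700E and 0.12 with WT. The other 241 counts of members under alternatives stayed within 1.5 times, and counts between the constructs were 0 throughout. Whether replicate numbers pair libraries is not stated, and correlations of deviations from the group mean cannot settle it. Between fractions, same-numbered values ran from -0.167 to 0.06 with K700E, against -0.266 to 0.26 for other numbers. With WT they ran from -0.158 to 0.093, against -0.115 to 0.212. Between constructs, same-numbered values were all positive, at 0.063 to 0.427 in nuclei against -0.326 to 0.129 for other numbers. In cytoplasm they were 0.027 to 0.343, against -0.281 to 0.173. With the replicate block by number 5 members were higher and 3 lower with each construct, 0 differed between constructs, and the block changed no call of a member.

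Some values that passed no test changed direction, and the cause was not tested. For DIS3 with WT, cytoplasm over nucleus, they were -0.219 (library size), -0.0741 (upper quartile) and -0.0222 (1 CPM). In the nucleus, K700E over WT, MTREX had -0.0523 and PABPN1 0.0950 with the GC correction, and -0.0543 and 0.0976 with the block added. Without the 3 libraries with the highest positive GC gap, PABPN1 had -0.496 in the cytoplasm and -0.476 in the interaction, and ZFC3H1 0.250 in the interaction. In the interaction EXOSC10 had -0.0103 with DESeq2, -0.0102 with RLE factors and -0.0249 without a filter, and ZCCHC8 0.0495 with library size, 0.0788 with the GC correction and 0.0706 with the block added. With 1 library left out at a time, values ran from -0.0701 to 0.896 for RBM7 in the nucleus, from -0.582 to 0.00901 for EXOSC5, -0.151 to 0.00120 for RBM7 and -0.511 to 0.471 for PABPN1 in the cytoplasm. In the interaction they ran from -0.838 to 0.376 for EXOSC4, -0.0978 to 0.169 for EXOSC10, -0.152 to 0.0259 for ZCCHC8, -0.743 to 0.198 for ZFC3H1 and -0.421 to 0.561 for PABPN1.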
